A study of Mus musculus with 4 samples.

Results

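The 9 genes Hmox1, Hmox2, Blvra, Blvrb, Fth1, Ftl1, Slc40a1, Tfrc and Slc48a1 carry out heme breakdown and the handling of the iron that it releases. They were chosen by name for these roles, without a threshold on any value, and all 9 of 9 were found among the 30450 genes named in the matrices of both tissues. A further 78 genes of iron and heme biology were read as a wider pathway list. The data are 4 single-cell RNA libraries of sorted eYFP+ endothelial cells, the cells that line vessels. In the KO aorta and KO lung libraries Oct4 (Pou5f1) was deleted in endothelial cells, and in the WT aorta and WT lung libraries it was intact. All 4 came from female C57/B6J mice that lacked Apoe, carried a Cdh5-driven endothelial lineage label and ate a Western diet for 5 weeks. Apoe loss and the diet were thus shared by every library, and no library shows the genes on a normal diet. The protocol names 3 KO mice and 2 WT mice, with 1 library per genotype and tissue and no label that assigns a cell to a mouse. The digestion buffers held 1 µg/mL actinomycin D, which blocks transcription.

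Heme oxygenase opens the heme ring and yields biliverdin, carbon monoxide and free iron. Biliverdin reductase turns biliverdin into bilirubin, ferritin shells store the iron, ferroportin exports it from the cell, and the transferrin receptor brings iron in from the blood. Several of these transcripts are held under control by iron regulatory proteins, which bind a short hairpin, the iron-responsive element, in the untranslated region (UTR). Bound at the 5′ end it blocks translation, and bound at the 3′ end of Tfrc it protects the transcript from decay. Ferritin can therefore change at the protein level with no change in its RNA, and RNA was what was measured here.

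The hairpin sequences are shown because they are the letters such a protein is known to bind. A search of GENCODE M21 UTRs on mm10 for a 27-base hairpin with the loop letters CAGTGN, an unpaired C before the upper stem and paired arms found 4 of the 9 members. The capitals mark the 6-base loop. Fth1 encodes the ferritin heavy chain, the subunit that oxidises iron, and its match lies at bases 88 to 114 of the 5′ UTR, at chr19:9982733-9982759 on the plus strand:
Fth1: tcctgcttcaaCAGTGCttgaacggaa
Ftl1 encodes the ferritin light chain, which helps to mineralise iron inside the shell, and its match lies at bases 79 to 105 of the 5′ UTR, at chr7:45459780-45459806 on the minus strand:
Ftl1: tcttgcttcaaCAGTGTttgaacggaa
Slc40a1 encodes ferroportin, the iron exporter, and its match lies at bases 91 to 117 of the 5′ UTR, at chr1:45925466-45925492 on the minus strand:
Slc40a1: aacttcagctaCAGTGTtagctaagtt
Tfrc encodes the transferrin receptor, and its 3′ UTR held 4 matches on the plus strand of chromosome 16, of which the first lies at chr16:32631220-32631246 and the last at chr16:32631711-32631737:
Tfrc first: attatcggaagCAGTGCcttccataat
Tfrc last: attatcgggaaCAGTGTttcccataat
No match was found in the UTRs of Hmox1, Hmox2, Blvra, Blvrb or Slc48a1. Among 21901 genes with a protein-coding transcript, 6 genes (0.0274%) held a match in a 5′ UTR and 11 genes (0.0502%) in a 3′ UTR. On the other strand the shares were 0.00457% and 0.0457%. A match is a description of these letters, not evidence of binding.

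Levels are UMIs, counts of single captured RNA molecules, summed over the endothelial-like cells of a library and given per 1000000 UMIs (CPM). Each interval is an exact 95% interval that covers counting error only. With 1 library per group no test between groups was possible, so a difference here compares 2 libraries and not 2 genotypes or tissues. The endothelial-like cells numbered 1525 in the KO aorta, 394 in the WT aorta, 482 in the KO lung and 738 in the WT lung, and their depth was 4223637 UMIs in the KO aorta, 957046 in the WT aorta, 928400 in the KO lung and 1412809 in the WT lung. Median depth per cell was 2304 UMIs in the KO aorta, 2080 in the WT aorta, 1735 in the KO lung and 1666 in the WT lung. Any pair of libraries shared 0 to 2 kept barcodes. Over all barcodes, Pou5f1 had 1 UMI in the KO aorta, 0 in the WT aorta, 1 in the KO lung and 2 in the WT lung, too few to check the genotype. Marker lists of other cell types were read in these cells. The red cell marker list summed to 217 CPM in the KO aorta, 2804 CPM in the WT aorta, 100.2 CPM in the KO lung and 46.7 CPM in the WT lung. It includes Bpgm, also a leading gene of 1 aortic endothelial-like cluster, so its sum is not red cell RNA alone. Its haemoglobin genes had 9.00 CPM in the KO aorta, 2534 CPM in the WT aorta, 82.9 CPM in the KO lung and 0.708 CPM in the WT lung. The macrophage list summed to 22.0 CPM in the KO aorta, 8.36 CPM in the WT aorta, 36.6 CPM in the KO lung and 46.7 CPM in the WT lung, with Adgre1 and Marco at 0 UMIs in all 4 libraries.

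Summed over all endothelial-like cells, neither heme oxygenase gene showed a KO to WT ratio whose interval left out 1. Hmox1 is the inducible enzyme, switched on by heme and oxidative stress, and lies on mm10 chromosome 8 at 75093621 to 75100589. It had 11.8 CPM (8.79 to 15.6, 50 UMIs) in the KO aorta, 8.36 CPM (3.61 to 16.5, 8 UMIs) in the WT aorta, 14.0 CPM (7.46 to 23.9, 13 UMIs) in the KO lung and 12.7 CPM (7.55 to 20.1, 18 UMIs) in the WT lung. All 4 intervals overlapped. The KO to WT ratio was 1.42 (0.666 to 3.46) in the aorta, so the depth did not show a difference. Hmox2 is the constitutive enzyme and lies on chromosome 16 at 4726361 to 4766742. It had 72.0 CPM in the KO aorta, 66.9 CPM in the WT aorta, 40.9 CPM in the KO lung and 53.8 CPM in the WT lung. The KO to WT ratio of Hmox2 was 1.08 (0.820 to 1.43) in the aorta and 0.761 (0.501 to 1.14) in the lung. Both intervals include 1. In lung capillary-like cells, which are 1 part of that sum, Hmox2 had 21.5 CPM (10.3 to 39.5) in KO and 54.1 CPM (38.6 to 73.6) in WT, a ratio of 0.398 (0.177 to 0.809), while in aerocyte-like cells the KO level was the higher, at 76.1 CPM against 36.0 CPM in WT. In WT large artery-like cells Hmox2 stood above the other endothelial-like cells, 2.13-fold (1.199 to 3.95) in the aorta and 3.37-fold (1.66 to 6.30) in the lung. The same ratio was 1.19 (0.940 to 1.497) in the KO aorta. Cdip1 lies on the opposite strand and overlaps Hmox2, and since the counting strand is not given here, some of these reads could belong to it.

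Vessel classes were named from marker genes after clustering the cells of each tissue without the members. The leading genes were Rgcc, Gpihbp1 and Car4 in aortic capillary-like cells, Ccl21a and Mmrn1 in the lymphatic-like cells of both tissues, Fibin, Ednrb and Emp2 in aerocyte-like cells, Plac8 and Nr2f2 in aortic and Slc6a2 and Vwf in lung vein-like cells, and Gja5 and Bmx in lung large artery-like cells. The aortic vein-like name is weak. In its KO cells the vein list summed to 7669 CPM, below the capillary list at 14255 CPM and the large artery list at 7851 CPM. Unnamed aortic KO cells had 7929 CPM of the vein list. Large artery-like cells of the aorta joined 5 clusters, of which 1 was led by Col8a1 and Serpina3n and held 128 KO and 12 WT cells, and 1 was led by the early-response genes Cxcl2 and Fos. Lung capillary-like cells joined 3 clusters, 1 led by interferon-response genes such as Ifit1 and 1 by Atf3 and Fos. The low Hmox1 count was unevenly spread over these classes. Among aortic capillary-like cells it had 55.7 CPM (25.5 to 105.6) in the KO library, from 9 UMIs in 4 of 104 cells, and 24.99 CPM from 2 UMIs in the WT library. In lung lymphatic-like cells it had 157 CPM (63.2 to 324) in the KO library, from 7 UMIs in 4 of 19 cells, and 63.4 CPM (23.3 to 138) in the WT library, from 6 UMIs in 6 of 41 cells. Within the WT lung that was 6.97-fold (2.15 to 20.1) the level of the other endothelial-like cells. In aortic large artery-like cells Hmox1 had 23 UMIs (10.7 CPM) in the KO library and 1 UMI (1.85 CPM) in the WT library. These are single-digit counts in several classes, and 12 macrophage-like cells of the KO aorta reached 223 CPM of Hmox1 from 11 UMIs in 2 cells. In the lung lymphatic-like cells the macrophage list summed to 292 CPM in the KO library and 264 CPM in the WT library, with 4 of 14 genes detected in each. Csf1r, Adgre1 and C1qa were at 0 in both, and the part of such RNA in the Hmox1 value was not tested.

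Among the members with at least 30 UMIs over both libraries, Blvrb differed most between KO and WT in both tissues, and was lower in KO in each. It encodes biliverdin reductase B, a flavin reductase that also acts on biliverdin, and lies on chromosome 7 at 27447978 to 27466144 on the plus strand. It had 67.7 CPM (60.1 to 76.0, 286 UMIs) in the KO aorta and 129.6 CPM (107.8 to 154.5, 124 UMIs) in the WT aorta. In the lung it had 22.6 CPM (14.0 to 34.6, 21 UMIs) in the KO library and 58.8 CPM (46.8 to 72.8, 83 UMIs) in the WT library. In both tissues the KO interval lay wholly below the WT interval. The ratio was 0.523 (0.422 to 0.651) in the aorta and 0.385 (0.227 to 0.628) in the lung. The last 300 bases of its transcripts shared no 50-base stretch with another gene, and no annotated gene overlapped the last 300 bases of Blvrb.

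**Figure D1:**
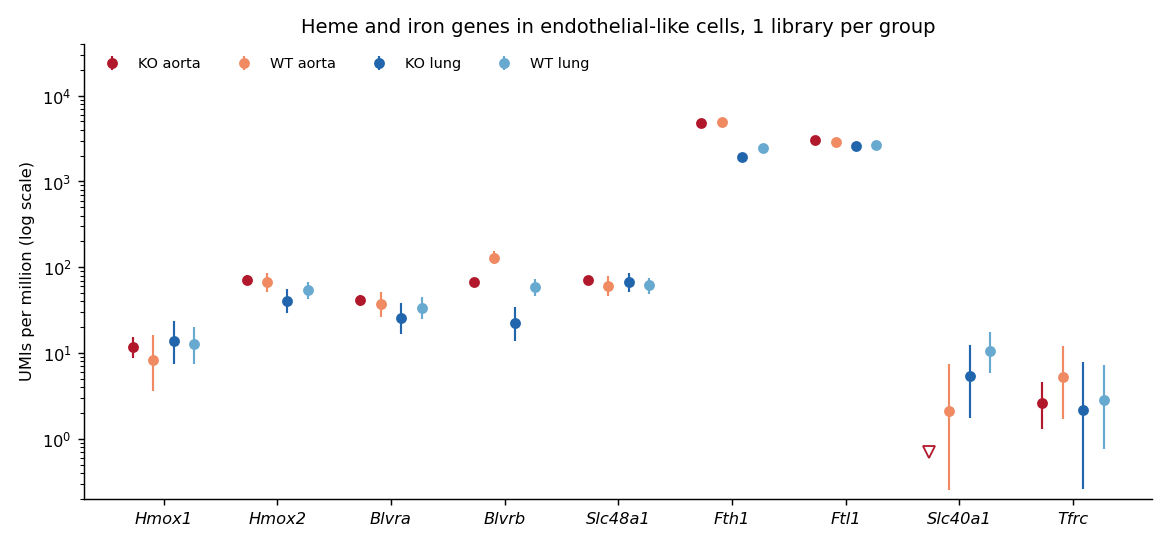
Level of the 9 genes in the endothelial-like cells of each library, in CPM on a log axis, with exact 95% Poisson intervals for counting error and 1 library per group. Blvrb sits at 67.7 CPM in the KO aorta against 129.6 CPM in the WT aorta, and at 22.6 CPM in the KO lung against 58.8 CPM in the WT lung.

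The share of cells with a Blvrb UMI ran the same way at equal depth. Cells of at least 1000 UMIs were thinned to 1000 UMIs each, which left out 142 KO and 71 WT aortic cells and 108 KO and 129 WT lung cells. Of the rest, 6.58% of KO aortic cells and 14.24% of WT aortic cells held a UMI, and 2.41% of KO lung cells and 5.91% of WT lung cells did. Before thinning the shares were 16.3% of KO and 23.9% of WT aortic cells, and 3.94% of KO and 9.89% of WT lung cells. In the KO aorta Blvrb was also found in 4 of 17 smooth muscle-like, 4 of 12 fibroblast-like and 7 of 12 macrophage-like cells, and no background level for free RNA was set here.

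The lower Blvrb level was seen across vessel classes and not in 1 cluster alone. In the aorta it was lower in KO in 8 of 8 clusters that held at least 20 cells of each library, with ratios of 0.297 to 0.863, and 3 of those intervals lay below 1. In the lung it was lower in 5 of 6 clusters, with ratios of 0.110 to 1.97, and 1 interval lay below 1. Lymphatic-like cells were the endothelial class richest in Blvrb in both WT libraries. In the aorta they had 106.7 CPM (77.2 to 143.7) in 192 KO cells and 283 CPM (182 to 421) in 40 WT cells. In the lung there were 0 UMIs in 19 KO cells, with a limit of 67.4 CPM at 3 counts, and 254 CPM (163 to 378, 24 UMIs) in 41 WT cells. Large artery-like cells of the aorta had 52.4 CPM in KO and 110.9 CPM in WT, a ratio of 0.473 (0.343 to 0.658). Within the WT lung, lymphatic-like cells stood 5.67-fold (3.37 to 9.25) above the other endothelial-like cells.

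**Figure D2:**
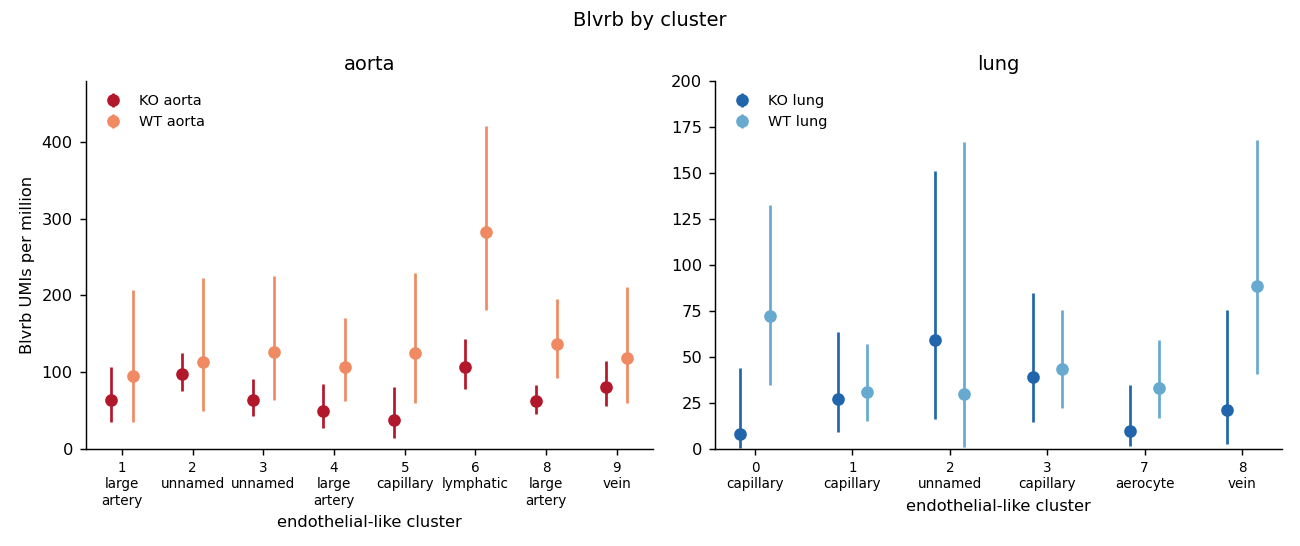
Blvrb level in KO and WT cells by cluster (those with 20 or more KO and 20 or more WT cells), in CPM with exact 95% Poisson intervals for counting error. KO lies below WT in 8 of 8 aortic clusters and in 5 of 6 lung clusters.

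Other cell types could carry Blvrb into the sort, since 12 macrophage-like cells of the KO aorta had 324 CPM. The macrophage list was at 22.0 CPM in the KO aorta and 8.36 CPM in the WT aorta, opposite in direction to Blvrb. In the lung it was at 36.6 CPM in KO and 46.7 CPM in WT, the same direction as Blvrb. The red cell list ran with it in the aorta, at 217 CPM in KO and 2804 CPM in WT, and against it in the lung, at 100.2 CPM in KO and 46.7 CPM in WT. Haemoglobin genes alone ran the same ways, at 9.00 CPM in KO and 2534 CPM in WT in the aorta. In the lung they had 82.9 CPM in KO and 0.708 CPM in WT. Leaving out cells of at least 3 haemoglobin UMIs took out 3 KO and 1 WT aortic cells and 2 KO and 0 WT lung cells. The Blvrb ratio was then 0.520 in the aorta and 0.368 in the lung. Leaving out cells with a leukocyte marker UMI took out 47 KO and 4 WT aortic cells and 18 KO and 38 WT lung cells. The ratio was then 0.531 in the aorta and 0.385 in the lung. Such small removals could move the ratio little, and RNA carried over from other cell types was not tested. Without lymphatic-like cells the Blvrb ratio was 0.555 in the aorta and 0.531 in the lung. With clusters weighted alike it was 0.506 in the aorta and 0.549 in the lung.

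Blvra encodes biliverdin reductase A, the main enzyme that makes bilirubin, and lies on chromosome 2 at 127070665 to 127097084. It had 41.2 CPM in the KO aorta, 37.6 CPM in the WT aorta, 25.9 CPM in the KO lung and 34.0 CPM in the WT lung. The KO to WT ratio was 1.10 (0.761 to 1.62) in the aorta and 0.761 (0.446 to 1.27) in the lung, and both intervals include 1. In the aorta the interval of the Blvra ratio lay wholly above that of the Blvrb ratio. Like Blvrb, Blvra was highest in lymphatic-like cells of the WT libraries, at 82.6 CPM in the aorta and 74.0 CPM in the lung, each from 7 UMIs. The lymphatic to other ratio was 2.49 (0.919 to 5.80) in the WT aorta and 2.38 (0.9005 to 5.36) in the WT lung, so neither excludes 1.

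Slc48a1 encodes HRG1, which moves heme out of lysosomes and endosomes into the cytosol, and lies on chromosome 15 at 97778520 to 97792692. Its library level was 71.0 CPM in the KO aorta, 60.6 CPM in the WT aorta, 66.8 CPM in the KO lung and 61.6 CPM in the WT lung. The KO to WT ratio was 1.17 (0.882 to 1.58) in the aorta and 1.08 (0.770 to 1.52) in the lung. Within the lung, though, it was concentrated in aerocyte-like cells, the Car4-high cells of the alveolar capillary net that lie against the gas-exchange surface. These had 190 CPM (136 to 259) in the KO lung, from 40 UMIs in 26 of 96 cells, and 180 CPM (138 to 232) in the WT lung, from 60 UMIs in 47 of 131 cells. The other capillary-like cells had 28.0 CPM (14.9 to 47.8) in the KO lung and 25.7 CPM (15.5 to 40.1) in the WT lung, with a UMI in 12 of 270 KO cells and 19 of 435 WT cells. The aerocyte-like level was 6.21-fold (3.60 to 10.97) that of all other endothelial-like cells in KO and 7.21-fold (4.51 to 11.8) in WT. In both lung libraries, whose cells came from different mice, the aerocyte-like cells thus stood above the other endothelial-like cells. Hdac7, which lies on the opposite strand at the 3′ end of Slc48a1, ran the other way, at 133 CPM in KO and 129 CPM in WT aerocyte-like cells against 213 CPM in KO and 203 CPM in WT capillary-like cells. In the aorta Slc48a1 varied less, with 82.6 CPM in KO and 68.4 CPM in WT large artery-like cells and 39.7 CPM in KO and 59.0 CPM in WT lymphatic-like cells.

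Slc40a1, the ferroportin gene on chromosome 1 at 45908068 to 45926523, was almost absent from the aorta and found in the same aerocyte-like cells of the lung. It had 0 UMIs in 1525 KO aortic cells, with a limit of 0.710 CPM at 3 counts, and 2.09 CPM in the WT aorta from 2 UMIs in 1 cell. In the lung it had 5.39 CPM (5 UMIs) in KO and 10.6 CPM (15 UMIs) in WT. Aerocyte-like cells held all 5 UMIs of the KO lung, at 23.8 CPM (7.72 to 55.5) in 4 of 96 cells. In the WT lung they held 13 of 15 UMIs, at 39.1 CPM (20.8 to 66.8) in 12 of 131 cells. The other 2 WT UMIs lay in lymphatic-like cells. Capillary-like cells held 0 UMIs in 270 KO cells and 0 UMIs in 435 WT cells. The KO to WT ratio within aerocyte-like cells was 0.609 (0.170 to 1.82), which does not show a difference. Macrophages also make ferroportin, and the macrophage list was at 33.3 CPM in KO and 27.0 CPM in WT aerocyte-like cells, against 21.5 CPM in KO and 35.1 CPM in WT capillary-like cells. The 25 KO and 23 WT macrophage-like cells of the lung held 0 Slc40a1 UMIs.

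**Figure D3:**
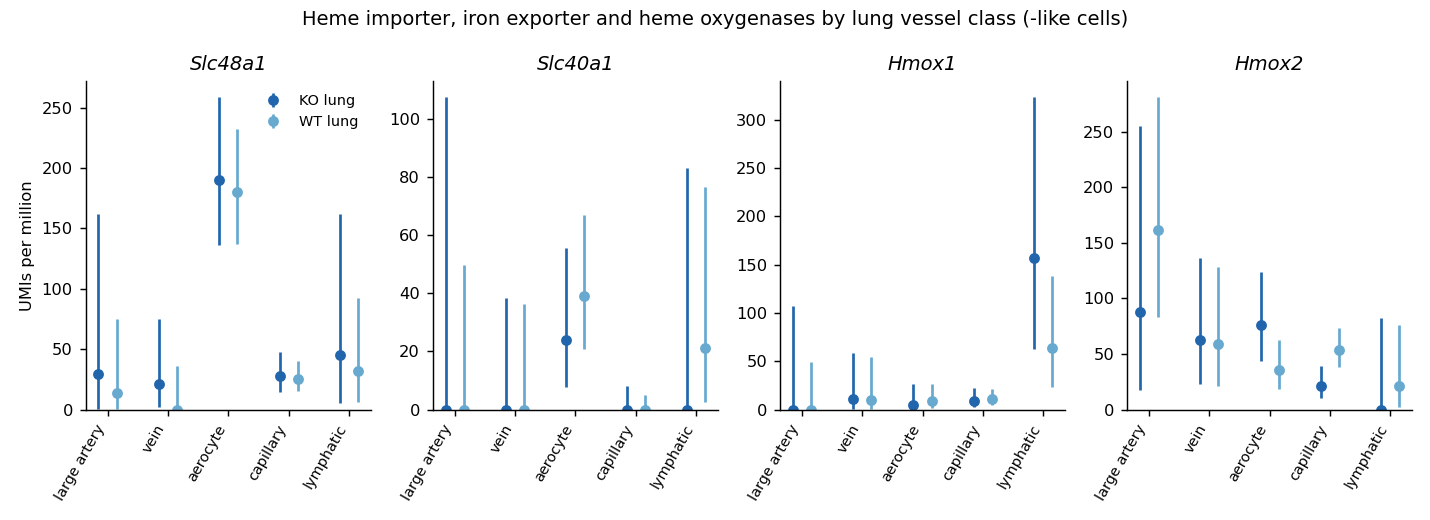
Level of Slc48a1, Slc40a1, Hmox1 and Hmox2 across the vessel classes of the KO and WT lung, in CPM with exact 95% Poisson intervals for counting error. Slc48a1 stands at 190 CPM in KO and 180 CPM in WT aerocyte-like cells, above the 28.0 CPM of KO and 25.7 CPM of WT capillary-like cells.

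The ferritin genes were the most abundant members by far, and their levels separated the tissues and classes in unlike ways. Fth1 lies on chromosome 19 at 9980598 to 9985098 and had 4737 CPM in the KO aorta, 4975 CPM in the WT aorta, 1939 CPM in the KO lung and 2471 CPM in the WT lung. Ftl1 lies on chromosome 7 at 45457944 to 45459884 and had 3031 CPM in the KO aorta, 2848 CPM in the WT aorta, 2593 CPM in the KO lung and 2663 CPM in the WT lung. Fth1 thus stood far apart between the tissues, while Ftl1 stayed in a narrow range. The aorta to lung ratio of Fth1 was 2.44 (2.33 to 2.57) in KO and 2.01 (1.93 to 2.10) in WT, against 1.17 (1.12 to 1.22) in KO and 1.07 (1.02 to 1.12) in WT for Ftl1. The last 300 bases of Ftl1 shared 79.2% of their 50-base stretches with other genes, among them Ftl1 pseudogenes, so its count is uncertain. For Fth1 the shared part was 6.09%. UMI levels are not divided by length, so Fth1 and Ftl1 are set against each other only as a ratio compared between cells.

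Between genotypes Fth1 differed little in the aorta, with a KO to WT ratio of 0.952 (0.923 to 0.983), and more in the lung, with 0.785 (0.741 to 0.831). The Ftl1 ratios were 1.06 (1.02 to 1.11) in the aorta and 0.973 (0.925 to 1.03) in the lung. Fth1 was lower in 5 of the 6 lung clusters compared. Among the named classes the lung difference was largest in aerocyte-like cells, with 2383 CPM in KO and 3559 CPM in WT, a ratio of 0.670 (0.602 to 0.744). Vein-like cells of the lung had 1544 CPM in KO and 2041 CPM in WT, and capillary-like cells 1225 CPM in KO and 1384 CPM in WT. An unnamed cluster of 35 KO and 21 WT cells ran the other way, with 1120 CPM in KO and 628 CPM in WT, a ratio of 1.79 (1.09 to 3.05). With cells thinned to 1000 UMIs the lung ratio was 0.887, and with clusters weighted alike 0.837.

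Lymphatic-like cells had the highest Fth1 of any endothelial class in all 4 libraries. In the aorta they had 13514 CPM (13157 to 13877) in KO and 13796 CPM (13016 to 14610) in WT, and in the lung 9410 CPM in 19 KO cells and 9101 CPM (8503 to 9730) in WT. Aortic vein-like cells followed with 6015 CPM in KO and 5211 CPM in WT, then large artery-like cells with 3744 CPM in KO and 4219 CPM in WT. Aortic capillary-like cells had the least, at 1843 CPM in KO and 2574 CPM in WT. The lymphatic level was 3.55-fold (3.44 to 3.66) that of other endothelial-like cells in the KO aorta, 3.35-fold (3.13 to 3.58) in the WT aorta and 4.56-fold (4.22 to 4.93) in the WT lung. The same contrast for Ftl1 gave 1.09 in the KO aorta, 0.886 in the WT aorta and 1.16 in the WT lung. Capillary-like cells went the other way, with Fth1 at 0.380 of the level of the rest in the KO aorta, 0.496 in the WT aorta, 0.462 in the KO lung and 0.377 in the WT lung. Ftl1 in those cells was at 1.36 of the rest in the KO aorta, 1.67 in the WT aorta, 0.892 in the KO lung and 0.876 in the WT lung.

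**Figure D4:**
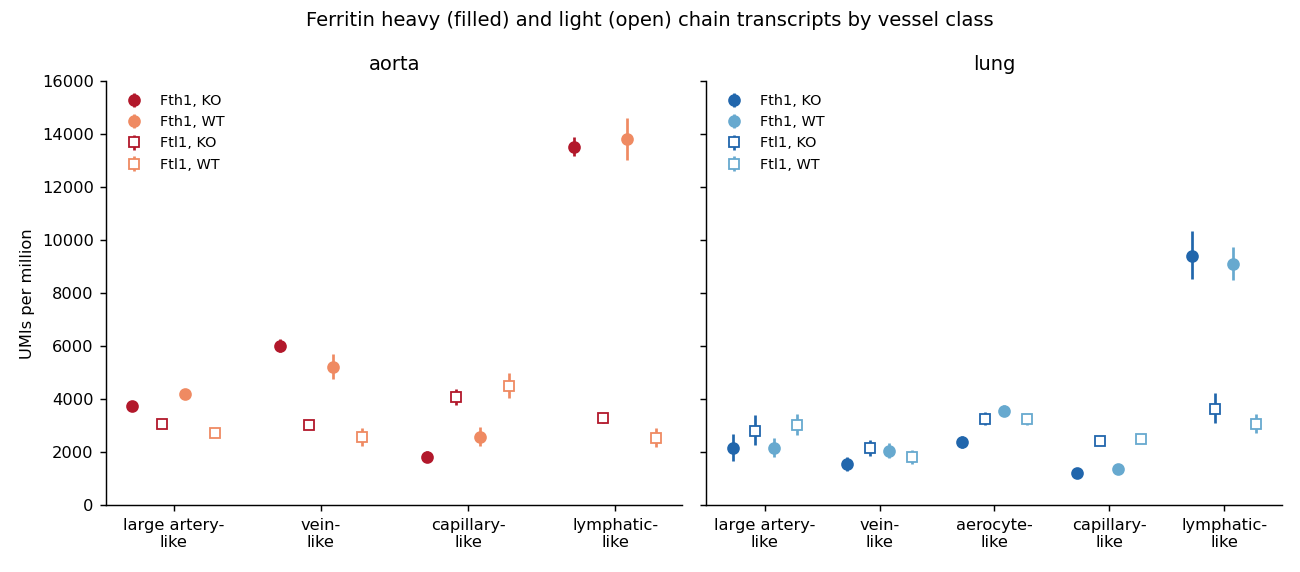
Fth1 and Ftl1 levels by vessel class, tissue and genotype, in CPM with exact 95% Poisson intervals for counting error. Fth1 stands at 13514 CPM in KO and 13796 CPM in WT aortic lymphatic-like cells, while Ftl1 stays between 1816 and 4511 CPM in the named classes.

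The Fth1 to Ftl1 UMI ratio set these classes apart on 1 scale. Over all endothelial-like cells it was 1.56 (1.53 to 1.60) in the KO aorta, 1.75 (1.67 to 1.83) in the WT aorta, 0.748 (0.703 to 0.795) in the KO lung and 0.928 (0.886 to 0.972) in the WT lung. In lymphatic-like cells it was 4.12 (3.88 to 4.38) in the KO aorta, 5.41 (4.68 to 6.29) in the WT aorta and 2.98 (2.61 to 3.42) in the WT lung. In capillary-like cells it was 0.452 in the KO aorta, 0.571 in the WT aorta, 0.501 in the KO lung and 0.554 in the WT lung. KO lay below WT in each of these pairs, with intervals that did not overlap for the libraries of both tissues and for aortic lymphatic-like cells. Unnamed endothelial-like cells of the lung ran the other way, at 0.727 (0.546 to 0.965) in KO and 0.380 (0.270 to 0.526) in WT. Within a class the tissues also differed: capillary-like cells had 1.504 times the Fth1 level of the lung in the KO aorta and 1.86 times in the WT aorta, and vein-like cells 3.90 times in KO and 2.55 times in WT. Ftl1 was higher in the aorta in the same cells, 1.67 times in KO and 1.81 times in WT capillary-like cells and 1.41 times in KO and 1.42 times in WT vein-like cells. In capillary-like cells the tissue difference was therefore about as large for Ftl1 as for Fth1. Ftl1 was not higher in the aorta in the other WT classes compared. In WT large artery-like cells Fth1 was 1.95 times and Ftl1 0.901 times (0.783 to 1.04) the lung level. In WT lymphatic-like cells Fth1 was 1.52 times and Ftl1 0.835 times (0.696 to 0.999). The KO lung held 18 large artery-like and 19 lymphatic-like cells, too few for a ratio. The vein-like and large artery-like classes of the aorta and the lung were led by different genes. The capillary-like classes largely were too, though Gpihbp1 was among the leading genes in both tissues. For these classes the comparison may join unlike cells.

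Tfrc, on chromosome 16 at 32608920 to 32632794, was near the limit of detection. It had 2.60 CPM (11 UMIs) in the KO aorta, 5.22 CPM (5 UMIs) in the WT aorta, 2.15 CPM (2 UMIs) in the KO lung and 2.83 CPM (4 UMIs) in the WT lung. The KO to WT ratio in the aorta was 0.499 (0.160 to 1.83), so no difference was detectable at this depth. All 5 WT aortic UMIs lay in capillary-like cells, in 5 of 60 cells, against 0 in 104 KO cells. The red cell list summed to 30228 CPM in those WT capillary-like cells, in which 1 cell held at least 3 haemoglobin UMIs, and red cell precursors are rich in the transferrin receptor. Each of the 5 Tfrc UMIs lay in a different cell, so that 1 cell held at most 1 of them. Whether red cell RNA carried the Tfrc UMIs was not tested.

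Set against all genes, 1 member in all was called between genotypes and 2 between tissues in each genotype. A gene was counted if it averaged at least 50 CPM, with at least 30 UMIs, over both libraries, and called if the libraries differed by at least 1.5-fold. In KO over WT aorta 5 members passed and 1, Blvrb, was lower, against 2.44% of 2986 genes called lower, 2.88% called higher and 5.32% called in either direction. In KO over WT lung 3 members passed and 0 were called, against 1.59% of 3337 genes called lower, 2.52% called higher and 4.11% called in either direction. Blvrb itself did not pass in the lung, with a mean under 50 CPM. In WT aorta over WT lung 5 passed and 2, Fth1 and Blvrb, were higher, against 15% of genes higher, 24.9% lower and 39.9% called in either direction. In KO aorta over KO lung 4 passed and 2, Fth1 and Hmox2, were higher, against 16.1% higher, 25.9% lower and 42.1% in either direction, so both shares lie near the background. Blvrb did not pass there, with a mean under 50 CPM, but was 2.99-fold (1.92 to 4.91) higher, from 286 and 21 UMIs. Hmox2 had 40.9 CPM in the KO lung and passed only through its aortic level. In WT aorta over WT lung Hmox2 stood at 1.24 (0.877 to 1.76). Each library enters 2 of these 4 comparisons, so they are not independent. The median log2 ratio of all genes was 0.03 in KO over WT aorta, 0.02 in KO over WT lung and −0.09 in both aorta over lung comparisons. The total used for scaling moved that last median: without mitochondrial, ribosomal protein and haemoglobin genes it was 0.04 in both KO and WT, and Fth1 in aorta over lung then had log2 ratios of 1.42 in KO and 1.14 in WT.

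**Figure D5:**
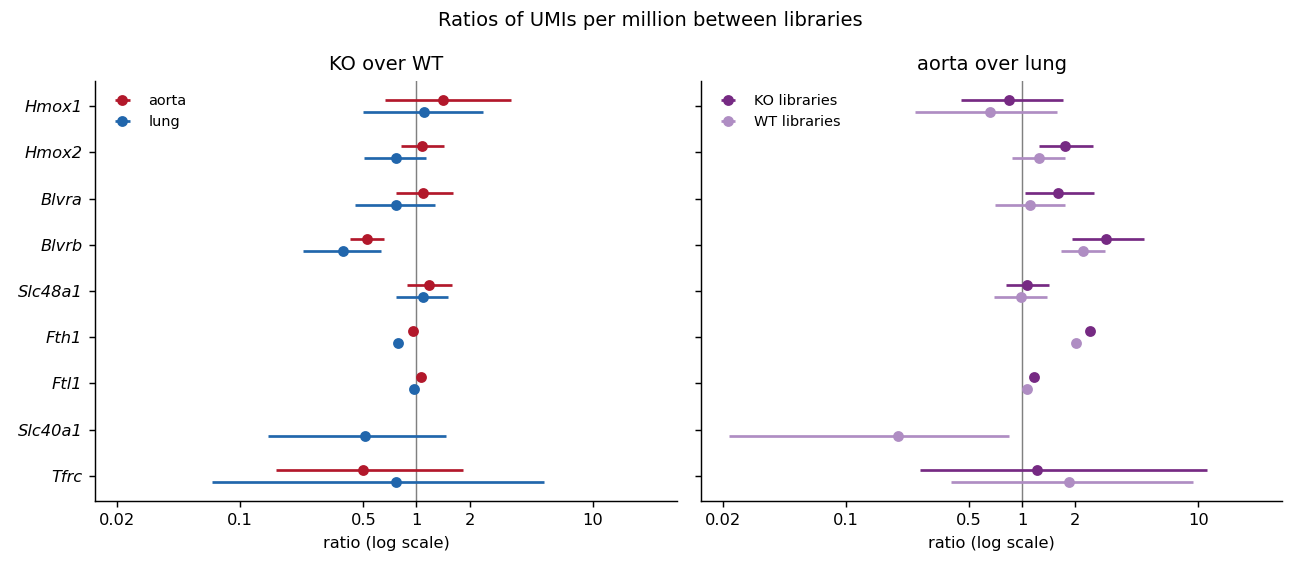
Ratio of each member between libraries, on a log axis, with exact 95% intervals for counting error. Blvrb lies at 0.523 in KO over WT aorta and 0.385 in KO over WT lung, and Fth1 lies above 2 in both aorta over lung comparisons.

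Between classes of 1 library the background was wider. Lymphatic-like against other endothelial-like cells, 2 of 5 members that passed were higher in the KO aorta, where 17.6% of genes were, 3 of 5 in the WT aorta, where 28.3% were, and 3 of 4 in the WT lung, where 21.3% were. Fth1 and Blvrb were among the higher members in all 3 libraries, and Blvra joined them in both WT libraries, though its intervals include 1. The filter took the mean of a class and the other cells, so a member under 50 CPM on 1 side passed only through the side where it was high. Such calls were set in part by the filter. Blvra had 33.3 CPM in the other cells of the WT aorta and 31.1 CPM in those of the WT lung, where Blvrb had 44.8 CPM. Lower calls were 2 of 5 in the KO aorta, Hmox2 and Slc48a1, where 15.3% of genes were lower, 0 of 5 in the WT aorta, where 19.5% were, and 0 of 4 in the WT lung, where 27.6% were. Hmox2 and Slc48a1 each had 39.7 CPM in the KO aortic lymphatic-like cells and passed only through the other cells. Aerocyte-like against other cells, 2 of 4 members that passed were higher in the KO lung, where 23.1% of genes were, and 2 of 3 in the WT lung, where 24.1% were. Slc48a1 was among them in both, with Hmox2 in KO, at 2.48-fold (1.22 to 4.95), and Fth1 in WT, at 1.67-fold (1.55 to 1.79). None that passed was lower, against 20.1% of genes in KO and 18.2% in WT. Under the filter, in WT aerocyte-like cells, Blvrb stood at 0.496 (0.237 to 0.941) and Hmox2 at 0.608 (0.299 to 1.14) of the other cells. Capillary-like against other cells, 3 of 5 were lower in the KO aorta (22.9% of genes), 1 of 3 in the WT aorta (31.4%), 2 of 3 in the KO lung (11.8%) and 3 of 5 in the WT lung (12.1%). Fth1 was lower in all 4. The other lower members, Blvrb and Slc48a1, had under 50 CPM in the capillary-like cells and passed only through the other cells. Of those that passed, 1 was higher, Ftl1 in the WT aorta (25.2% of genes), against 22% of genes in the KO aorta, 13.5% in the KO lung and 11.6% in the WT lung.

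In the wider pathway, in KO over WT aorta, 20 of the 78 genes passed the level filter, of which 2 were higher, where 2.88% of all genes were, and 1 lower, where 2.44% were, with a median log2 ratio of −0.03. The higher genes were Lcn2, which encodes the siderophore-binding lipocalin 2, at 2.64-fold (2.18 to 3.21), and Trf, which encodes transferrin, at 1.55-fold (1.13 to 2.16). With clusters weighted alike the Lcn2 log2 ratio turned to −0.19, with cells thinned it was 0.46, and without lymphatic-like cells it was 6.77. The 3′ end of Trf shared 68.9% of its 50-base stretches with other genes, so its count is uncertain. Of the single lists in the aorta, heme transport and scavenging had 1 of 12 genes measured and 0 called, iron export and its regulators 3 of 8 and 0, iron storage and ferritin turnover 4 of 5 and 0, mitochondrial iron and iron-sulfur clusters 3 of 12 and 0, the Nrf2 and Bach1 regulators with their targets 5 of 13 and 0, ferroptosis 1 of 3 and 0, and iron sensing 0 of 3 measured. In KO over WT lung 20 genes passed, of which 1 was higher, where 2.52% of all genes were, and 1 lower, where 1.59% were. Hebp1, a heme-binding protein, had 138.9 CPM in the KO lung against 68.0 CPM in the WT lung, a ratio of 2.05 (1.56 to 2.69), and was higher in 6 of 6 clusters. Lcn2 was the lower gene, at 0.626 (0.430 to 0.897), with 43 of 44 KO and 106 of 107 WT UMIs in lymphatic-like cells. Its log2 ratio turned to 0.58 without those cells, 0.040 with cells thinned and 1.14 with clusters weighted alike.

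Regulators of these genes were read by name. Nfe2l2, which encodes the activator NRF2 of Hmox1 and ferritin genes, had a KO to WT ratio of 0.987 in the aorta and 1.04 in the lung. Keap1, which holds NRF2 back, stood at 1.08 in the aorta and 1.04 in the lung, and Bach1, the heme-sensing repressor of Hmox1, at 0.941 in the aorta and 0.948 in the lung. Ncoa4, which delivers ferritin to the lysosome, stood at 0.973 in the aorta and 0.948 in the lung. Of the iron regulatory protein genes, Aco1 stood at 0.891 in the aorta and 1.31 in the lung, and Ireb2 at 1.84 (0.949 to 3.97) in the aorta and 0.699 (0.369 to 1.27) in the lung, with both genes below the level filter. Between tissues Bach1 was lower in the aorta, at 0.312 (0.203 to 0.486) of the lung in KO and 0.315 (0.159 to 0.579) in WT, at levels below the filter. In aorta over lung 22 pathway genes passed in each genotype, with 3 higher and 4 lower in KO, where 16.1% of all genes were higher and 25.9% lower, and 3 higher and 3 lower in WT, where 15% were higher and 24.9% lower. Cp, which encodes the iron oxidase ceruloplasmin, was 9.49-fold (6.58 to 14.2) higher in KO and 6.54-fold (4.90 to 8.86) in WT. Alas1, the rate-limiting enzyme of heme synthesis, was at 0.377 in KO and 0.364 in WT.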

How the data were processed

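Sorted cells went through 10x Chromium capture and MiSeq sequencing, per the labels' protocols. The deposited matrices hold UMI counts as whole numbers, and the submitters' processing notes name Cell Ranger and mm10. Versions and counting strand were not given in the sources used here. Columns of unmapped samples numbered 0. Aortic rows carry symbols, and 30934 lung identifiers matched GENCODE M21 while 119 did not. Cells with at least 500 UMIs and at most 15% mitochondrial UMIs were kept. Scanpy 1.11.5 clustered each tissue (2000 variable genes without members, pathway or haemoglobin genes, 30 components, 15 neighbours, Leiden resolution 1), and classes were named from at least 3 detected markers, so they are rebuilt names. Scrublet called 4, 4, 7 and 6 doublets in the KO aorta, WT aorta, KO lung and WT lung, which were kept. Free RNA was not corrected. Counts were summed per library and class. Scipy 1.17.1 gave exact 95% intervals (Poisson for CPM, conditional binomial for ratios, Clopper-Pearson for shares), for counting error only, with a floor of 3 counts. Interval code was tested on simulated data. Deposited depth was 4483756, 1034161, 1052504 and 1506574 UMIs in the same library order. Members and lists were chosen with earlier results of these data known. Pathway genes were named by rule: the 3 largest changes in each direction past the filter, plus fixed regulators. A few genes that this rule names are not reported here. Other named genes were picked after their values were seen.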

Additional observations from a re-analysis of the deposited data

Results flagged for a closer look

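Summed over all endothelial-like cells, Lcn2 moved in opposite directions with genotype in the tissues, which is why it is listed here. Its KO to WT ratio was 2.64 in the aorta and 0.626 in the lung, and with 1 library per group this difference was not tested. In the KO aorta 867 of its UMIs lay in 36 of the 128 KO cells of 1 large artery-like cluster, led by Col8a1, Serpina3n and Lcn2 itself, against 0 UMIs in 12 WT cells. In the lung 43 of 44 KO UMIs and 106 of 107 WT UMIs lay in lymphatic-like cells, of which there were 19 in KO and 41 in WT. Without lymphatic-like cells the KO to WT log2 ratio was 6.77 in the aorta and 0.58 in the lung, the latter from the few UMIs left. Of the 2 aortic clusters that gave a ratio, 1 was at 0.775 with an interval below 1, and 1 at 3.30. The opposite directions thus describe the library sums and were not shown within like classes.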

How the results depend on the processing

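No paired analysis was possible because each group is 1 library and the labels give no replicate numbers. Each ratio was recomputed under up to 13 alternatives (other cell filters, doublets, red cells, leukocyte or lymphatic-like cells left out, other scalings, thinning, clusters weighted alike). Of 419 such member ratios 388 moved by less than their counting interval, 27 moved by more and 4, each reported at 1.5-fold or more, changed direction. A further 20 changed sign from reported ratios under 1.5-fold, among them Ftl1 in WT aorta over WT lung, reported at a log2 ratio of 0.10 and at −0.06 with cells as deposited. Blvrb in KO over WT kept its direction in every one, with log2 ratios of −1.19 to −0.74 in the aorta and −1.49 to −0.86 in the lung. The 4 changed directions were those of genes with few UMIs: the Tfrc log2 ratio was 0.28 in KO over WT aorta at 1000 UMIs or more per cell and at most 10% mitochondrial UMIs, and in WT aorta over WT lung −0.43 under that filter and −0.67 thinned. Slc40a1 in KO over WT lung was 0.29 thinned. Lcn2, a pathway gene with more UMIs, was also reversed: in KO over WT it was −0.19 in the aorta with clusters weighted alike, and in the lung 0.58 without lymphatic-like cells, 0.040 thinned and 1.14 with clusters weighted alike. Fth1 in KO over WT aorta spanned −0.11 to 0.01. The number of genes called fell as the level minimum or fold rose (20 CPM, 100 CPM, then 2-fold): 551, 78 and 31 in KO over WT aorta (159 as reported), 579, 54 and 23 in KO over WT lung (137), 2606, 732 and 788 in KO aorta over lung (1377), and 2427, 664 and 732 in WT aorta over lung (1290). Pathway genes called were 5 at 20 CPM and 1 at 100 CPM in KO over WT aorta, 1 at 100 CPM and 1 at 2-fold in KO over WT lung, 11 at 20 CPM and 2 at 100 CPM in KO aorta over lung, and 2 at 100 CPM and 2 at 2-fold in WT aorta over lung. With all kept cells the Fth1 to Ftl1 ratio was 1.61 in the KO aorta and 0.986 in the WT lung. The cause of these changes was not tested beyond the genes and cells each setting removes. Depth limits Hmox1, Slc40a1 and Tfrc, which had at most 50 UMIs in a library.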

Other observations

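The genes whose levels ran most like those of the members over 33 points (clusters by library, 18 aortic and 15 lung, which share libraries and depth) are given as a description, among 3243 genes. Fth1 ran closest to Fxyd6 (Pearson r 0.870) and also ran close to the lysosomal protease gene Ctsb (0.866); Fxyd6 was also one of the markers used to name lymphatic-like cells. Blvrb ran closest to Fxyd6 too (0.737), then Ahnak (0.725). Slc48a1 ran closest to Nedd8 (0.693), Arpc2 (0.672) and Emp2 (0.663), an aerocyte naming marker. Tfrc ran closest to the haemoglobin gene Hba-a1 (0.806), and its values are a few UMIs. That likeness was 0.898 over the aortic points and 0.124 over the lung points. In the aorta all 5 WT Tfrc UMIs lay in 1 point, the WT capillary-like cells. So did 2419 of the 2684 WT red cell list UMIs, so the aortic value may rest largely on that point.

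In the lung 28 of 29 KO and 57 of 58 WT UMIs of Cp lay in lymphatic-like cells, for which Cp was itself a naming marker, and Lcn2 had 966 CPM in KO and 1120 CPM in WT lung lymphatic-like cells.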
